A study of Rattus norvegicus with 12 samples.

Results

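The genes described here are the core loop of the circadian clock and its direct output factors, read from rat left ventricle, in exercised rats (treadmill running for 7 weeks) and sedentary rats. All probe sets annotated to exactly 1 of 10 listed genes (Dbp, Nr1d1, Nr1d2, Bhlhe40, Bhlhe41, Bmal1, Per2, Tef, Hlf and Nfil3) were taken, which gave 14 of the 8740 probe sets of the array. They cover 9 of the 4736 genes that the array names, and no probe set of the table carried Nfil3 alone. Of the 14, 13 passed the filter on dim probe sets (a mean over the 12 arrays above 434) that left 6555 probe sets for testing, and the single Per2 probe set did not. The genes were chosen by the intensities of these same arrays, with their group differences and a shared relation of Dbp, Nr1d2 and Bhlhe41 with the sample number already known. The group differences and the correlations across arrays are therefore descriptions of these arrays, and their p-values are no independent support. Each group held 6 samples with 1 single-channel array of total RNA each. Each sample is called by its group and title number (exercised 1, 4, 5, 7, 8 and 9, sedentary 13, 16, 17, 21, 23 and 24). The labels give neither strain, age nor sex, nor whether each number is a separate rat, nor the time of day at which tissue was taken or its distance from the last run. What a p-value weighs is thus the spread among the 12 samples, and some of it may be technical.

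The clock of a mammalian cell is a transcriptional loop that takes about a day to turn. The protein of Bmal1, together with Clock, binds E-boxes and activates Per and Cry genes, whose products then repress it, and it also activates Nr1d1 and Nr1d2, the nuclear receptors Rev-erb alpha and beta, which repress Bmal1 in return. Bhlhe40 and Bhlhe41 (Dec1 and Dec2) are E-box repressors of the same loop, and Dbp, Tef and Hlf are the related PAR-bZIP factors that carry the rhythm to target genes through D-boxes, where Nfil3 opposes them. In rodent heart, transcripts of Dbp, Nr1d1, Nr1d2 and Per2 are known to peak in another part of the day than that of Bmal1.

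Dbp, Nr1d2 and Bhlhe41 had higher mean intensities in exercised samples and Bmal1 a lower one, and the same 4 exercised arrays (5, 7, 8 and 9) lay beyond the whole sedentary range for each of the 4 genes on its brighter probe set. Dbp averaged 2982 ± 1395 in exercised and 1505 ± 520 in sedentary samples (SD, n = 6 each), a ratio of 1.98. Nr1d1, Bhlhe40, Tef and Hlf differed between the groups by less than 0.06 on the log2 scale. Of the 13 tested probe sets, 0 had an adjusted p under 0.05 (limma on log2(intensity + 363) with Benjamini-Hochberg adjustment over 6555 probe sets), where 0.32% of all did. That background of 21 probe sets was 3 to 37 with 1 array left out (3 without sedentary 23, 37 without sedentary 13) and 160 with array weights. An unadjusted p under 0.05 was found for 5 of the 13, 4 higher and 1 lower, against 16.2% of all, 9.26% higher and 6.91% lower. The 4 higher ones were both probe sets of Dbp, Nr1d2 and Bhlhe41, so Dbp is counted on each of its probe sets. By sign, 5 of the 13 were higher, against 51.4% of all. By the exact rank-sum test, 3 of the 13 had an unadjusted p under 0.05, and the share of all probe sets at that level was not counted. With 6 against 6 the smallest p of this test is 0.00216, and 0 of all tested probe sets passed the adjustment. That 0 of the 13 passed by it thus says nothing about the clock genes. The groups overlapped on each of the 13, against 2.07% of all probe sets without overlap, 1.5% with every exercised array above and 0.58% with every one below. Since the genes were chosen on this contrast, nothing is read from these counts.

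The arrays were on a common scale, with medians of 840 to 875. All 7 tested markers of ventricular cardiomyocytes had a mean above the highest of these medians. Exercised 4 and 5 were low in the haemoglobin transcript Hbb, at 15784 and 8786, against 28362 to 33321 on the other exercised and 31533 to 37794 on the sedentary arrays. Sedentary 16 stood apart in the atrial light chain Myl7, at 8652, against 1136 to 1923 on the other sedentary arrays. Without exercised 4 and 5, a choice made after seeing the data, the log2 differences were 1.01 for Dbp, 0.76 for Nr1d2, 0.45 for Bhlhe41 and -0.19 for Bmal1, and without sedentary 16 they were 0.72, 0.60, 0.33 and -0.17 in the same order. Fibroblast markers were higher by sign in 6 of 6 genes (median log2 difference 0.24, against 0.00 over all tested probe sets, of which 51.4% were higher), with summed intensities of 30226 to 49394 on exercised and 25846 to 33532 on sedentary arrays. Col1a2 (0.36, limma adjusted p = 0.244) and Pdgfra (0.28, adjusted p = 0.226) had an unadjusted p under 0.05, where 9.26% of all were higher at that level. Of the macrophage markers, 2 of 5 were higher by sign, with sums of 14917 to 21534 on exercised and 13490 to 15921 on sedentary arrays. They were Lyz2, which passed the test at 5421 ± 2104 in exercised and 2401 ± 297 in sedentary samples (limma adjusted p = 0.0404), and C1qb (0.37, adjusted p = 0.0910). Smooth muscle markers were higher by sign in 4 of 4 (median 0.14, Acta2 0.34 and Actg2 0.17), erythroid markers lower in 3 of 3 (Hbb by -0.58 and Alas2 by -0.28), 2 of 4 atrial markers higher (Pam by 0.21) and 1 of 3 endothelial markers higher. The part of these cells in the clock gene differences was not tested. In whole tissue, fewer cells of a type and less RNA per cell cannot be told apart.

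Among the outputs, Dbp was read by 2 probe sets made from the same accession. On J03179_g_at the intensities on exercised 1, 4, 5, 7, 8 and 9 were 1704, 1157, 2740, 3528, 4882 and 3879. On sedentary 13, 16, 17, 21, 23 and 24 they were 978, 1222, 1402, 1356, 1592 and 2482. Exercised 1 and 4 thus lay within the sedentary range and the other 4 exercised arrays above it, and sedentary 24 stood highest in its group. The log2 difference was 0.76 ± 0.27 (SE, limma adjusted p = 0.178), and it ranged from 0.61 without exercised 8 to 0.96 without exercised 4 when 1 array was left out. The dimmer probe set J03179_at averaged 1198 ± 596 in exercised and 585 ± 204 in sedentary samples (log2 difference 0.65 ± 0.23, adjusted p = 0.182), with the same 4 exercised arrays above the sedentary maximum of 936.

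The other PAR-bZIP factors did not share this pattern. Tef, on S58745_at, had a lowest, median and highest intensity of 2857, 2992 and 3351 in exercised and of 2950, 3113 and 3260 in sedentary samples, and its log2 difference was -0.02 ± 0.051 (limma adjusted p = 0.883). Its exercised arrays fell on both sides of the sedentary range, 2 above and 3 below. Hlf averaged 2870 ± 160 in exercised and 2910 ± 290 in sedentary samples on its brightest probe set S79820_at, a log2 difference of -0.01 ± 0.063, and its other probe sets gave -0.03 each (adjusted p of 0.714 to 0.924 over the 3). The highest Dbp value within the exercised group was 4.22 times the lowest, against 1.17 times for Tef and 1.16 times for this Hlf probe set. In the sedentary group these ratios were 2.54, 1.11 and 1.34.

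**Figure D1:**
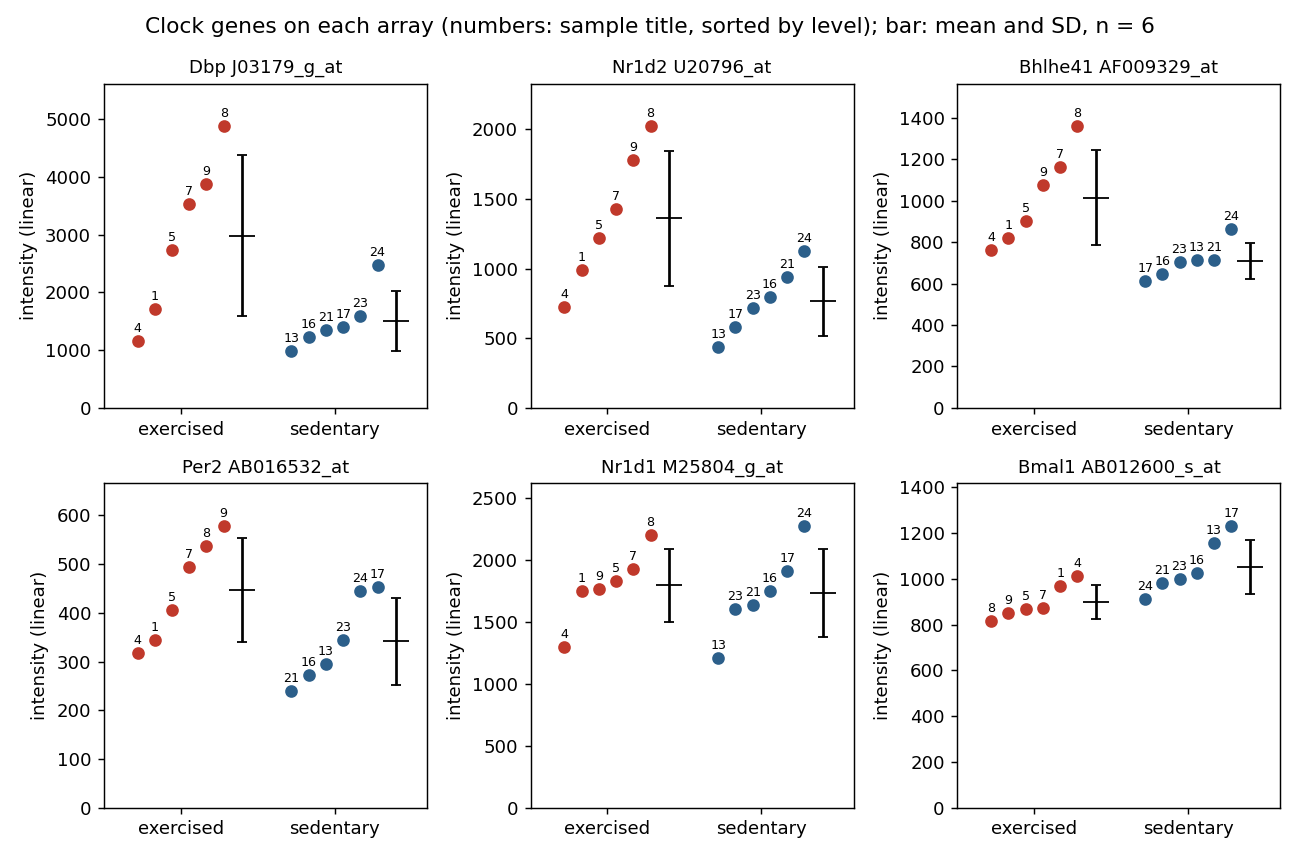
Linear intensity of 6 clock probe sets on each array, exercised left and sedentary right, with points numbered by the sample title and sorted by level within a group, and a bar for the mean and SD (n = 6). Exercised 5, 7, 8 and 9 lie above every sedentary array for Dbp, Nr1d2 and Bhlhe41 and below every one for Bmal1.

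Of the repressors, Nr1d2 (Rev-erb beta, U20796_at) had a lowest, median and highest intensity of 727, 1323 and 2023 in exercised and of 440, 757 and 1125 in sedentary samples. Exercised 1 and 4, at 990 and 727, were within the sedentary range and the other 4 above it. The means were 1360 ± 484 in exercised and 766 ± 247 in sedentary samples, and the log2 difference was 0.59 ± 0.18 (SE, n = 6 each, limma adjusted p = 0.141).

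Bhlhe41 (Dec2, AF009329_at) had the smallest adjusted p of the clock genes. Its lowest, median and highest intensities were 764, 989 and 1360 in exercised and 611, 709 and 862 in sedentary samples. All 6 exercised arrays were above the sedentary mean and 4 were above the sedentary maximum, and the log2 difference was 0.35 ± 0.093 (limma adjusted p = 0.0971). Its paralogue Bhlhe40 (Dec1, AF009330_at) averaged 1482 ± 108 in exercised and 1515 ± 102 in sedentary samples, a log2 difference of -0.03 ± 0.050 (adjusted p = 0.808). Both are E-box repressors, and both also carry an E-box in front of their own start.

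Nr1d1 (Rev-erb alpha) was read by 2 probe sets of 1 accession that disagreed in how far they varied. M25804_at averaged 4073 ± 110 in exercised and 4246 ± 335 in sedentary samples (log2 difference -0.05 ± 0.054, limma adjusted p = 0.636). M25804_g_at averaged 1792 ± 294 in exercised and 1728 ± 354 in sedentary samples (0.05 ± 0.12, adjusted p = 0.848), and no array of the exercised group lay outside the sedentary range on either. Within the exercised group the highest value of M25804_g_at was 1.69 times the lowest and that of M25804_at 1.07 times. The 3' end of Nr1d1 overlaps Thra, the thyroid hormone receptor gene on the other strand, so what each probe set reads is uncertain. Among 6 relations computed after these values were seen, M25804_at had an exact permutation p under 0.05 with 2 of 3 Thra probe sets across the 12 arrays with group means removed, and none of the 6 passed the adjustment over them. For X12744_at, Pearson's r was 0.68 and Spearman's rho 0.66 (exact permutation p = 0.0118 and 0.0290, adjusted over the 6 relations 0.0707), and r was 0.68 without the 2 arrays farthest from the median. For M31174_g_at, r was 0.75 and rho 0.74 (exact permutation p = 0.0277 and 0.0215, adjusted 0.0831), and r was 0.73 without 2 arrays (exact p = 0.0733). With the third, M31174_at, r was -0.22 and rho 0.25 (exact permutation p = 0.658 and 0.454), and r was 0.52 without 2 arrays (exact p = 0.0760). The r of M25804_g_at with the Thra probe sets was -0.07 to 0.44 (exact permutation p of 0.208 to 0.839).

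Per2, the period gene of the negative limb, was dim and below the filter, so it has no p in the table of tests. Its lowest, median and highest intensities on AB016532_at were 318, 450 and 579 in exercised and 239, 319 and 452 in sedentary samples. Exercised 7, 8 and 9 were above the sedentary maximum, and the log2 difference, from a fit without the filter, was 0.20 ± 0.094. The scale understates the change of a probe set this dim.

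Bmal1, the activator of the loop, was read by AB012600_s_at and the dimmer AF015953_at. On AB012600_s_at the lowest, median and highest intensities were 817, 871 and 1011 in exercised and 912, 1013 and 1232 in sedentary samples, with exercised 5, 7, 8 and 9 below the sedentary minimum and exercised 1 and 4 within the sedentary range. All 6 exercised arrays were below the sedentary mean of 1051 ± 119, and the exercised mean was 898 ± 74.4 (log2 difference -0.16 ± 0.057, limma adjusted p = 0.177). AF015953_at averaged 568 ± 120 in exercised and 629 ± 164 in sedentary samples (-0.08 ± 0.11, adjusted p = 0.701). Sedentary 17 was the highest sedentary array on the first probe set and the lowest on the other. Across the 12 arrays with group means removed their r was 0.29 (rho 0.36, exact permutation p = 0.421 and 0.289). Without sedentary 17 and exercised 4, the arrays farthest from the median of AB012600_s_at, r was 0.87 (exact permutation p = 0.0075). It was 0.96 within the exercised and -0.07 within the sedentary arrays (exact permutation p = 0.0125 and 0.89).

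**Figure D2:**
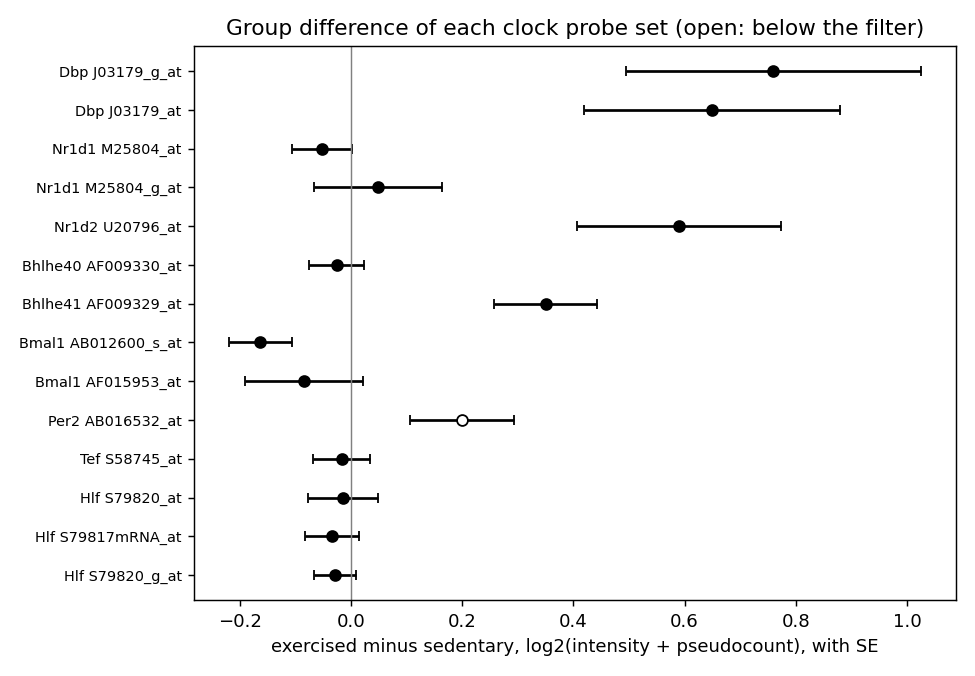
Difference between exercised and sedentary samples for each of the 14 clock probe sets on the log2(intensity + 363) scale, with its SE, and an open point for Per2, which is below the filter. Dbp, Nr1d2, Bhlhe41 and Per2 lie right of 0, Bmal1 lies left of it, and the other genes are within 0.06 of it.

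The promoters of the loop genes were searched for known clock elements, and the sequences of Bmal1, Per2 and Bhlhe41, each with a match, are shown. A relation of these elements to the direction in which the genes varied across arrays was not tested. Of the 10 genes, 9 matched the RefSeq promoter table (rat build GRCr8), and Hlf had no entry there. The 250 bases before each listed start were searched on both strands for the E-box CACGTG, the D-box forms TTATGTAA and TTACGTAA, and the Rev-erb/ROR element, AANTN directly followed by GGTCA. An open form, AANTN directly followed by GGTNA, was searched as well and includes the stricter one. Of 33469 promoters in the table, 5.59% held the E-box, 0.828% and 0.108% the D-box forms, 0.669% the Rev-erb/ROR element and 2.2% its open form. In the lines below, capitals mark the matches.

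Bmal1 (chr1:176766078-176766327, plus strand, 2 Rev-erb/ROR matches, at -55 and -19 from the start): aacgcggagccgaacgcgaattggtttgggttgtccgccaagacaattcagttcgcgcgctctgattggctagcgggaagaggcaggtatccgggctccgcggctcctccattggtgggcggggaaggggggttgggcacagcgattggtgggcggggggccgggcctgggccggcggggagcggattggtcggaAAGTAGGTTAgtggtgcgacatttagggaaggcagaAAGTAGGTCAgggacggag
Per2 (chr9:99496994-99497243, minus strand, a D-box at -192): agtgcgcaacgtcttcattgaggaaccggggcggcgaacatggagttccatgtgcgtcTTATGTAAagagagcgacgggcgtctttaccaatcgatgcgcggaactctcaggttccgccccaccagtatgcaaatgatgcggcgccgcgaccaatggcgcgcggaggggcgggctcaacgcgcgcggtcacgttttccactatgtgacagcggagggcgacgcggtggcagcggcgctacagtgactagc
Bhlhe41 (chr4:180569356-180569605, minus strand, an E-box at -48): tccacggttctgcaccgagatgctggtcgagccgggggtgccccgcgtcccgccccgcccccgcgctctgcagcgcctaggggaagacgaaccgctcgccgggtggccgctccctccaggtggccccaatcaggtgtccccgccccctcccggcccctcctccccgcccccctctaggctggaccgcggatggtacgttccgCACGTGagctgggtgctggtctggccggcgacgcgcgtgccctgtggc

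The match at -19 of Bmal1 has the stricter Rev-erb/ROR form and that at -55 only the open form. An E-box was also found in front of Bhlhe40 (-220), Tef (-198) and 1 of the 2 listed starts of Nr1d1 (-191). The windows of Dbp, Nr1d2, Nfil3 and the other Nr1d1 start held none of the searched letters. A match is a description of the sequence, and the data hold no measurement of binding.

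Across arrays with the group means removed, Nr1d2, Bhlhe41, Per2 and M25804_g_at of Nr1d1 varied in the same direction as Dbp. Both Bmal1 probe sets varied in the opposite one. Some pairs were weaker. With AB012600_s_at of Bmal1, r was -0.29 for Per2 and -0.58 for M25804_g_at (exact permutation p = 0.381 and 0.0671). It was -0.46 for Bhlhe41 with AF015953_at and 0.57 for Per2 with Nr1d2 (exact permutation p = 0.119 and 0.0693). The other pairs of different genes among these had an unadjusted p under 0.05. No relation of Tef, Hlf or the other Nr1d1 probe set with Dbp was detectable over all arrays. Dbp had one of the largest spreads within groups on the array, with an SD of 0.54 on the log2 scale, rank 14 of the 6555 tested probe sets, whose median SD was 0.0991. Its other probe set ranked 20, Nr1d2 ranked 44 (SD 0.37), M25804_g_at of Nr1d1 ranked 281 (0.23) and Bhlhe41 ranked 670 (0.18), whereas Tef ranked 4957 (0.073). Of the exercised arrays, 8 was highest and 4 lowest for Dbp, Nr1d2, Bhlhe41 and M25804_g_at, and 8 was lowest and 4 highest for Bmal1 on AB012600_s_at. Of the sedentary arrays, 24 was highest for the first 4 probe sets and lowest for that of Bmal1.

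**Figure D3:**
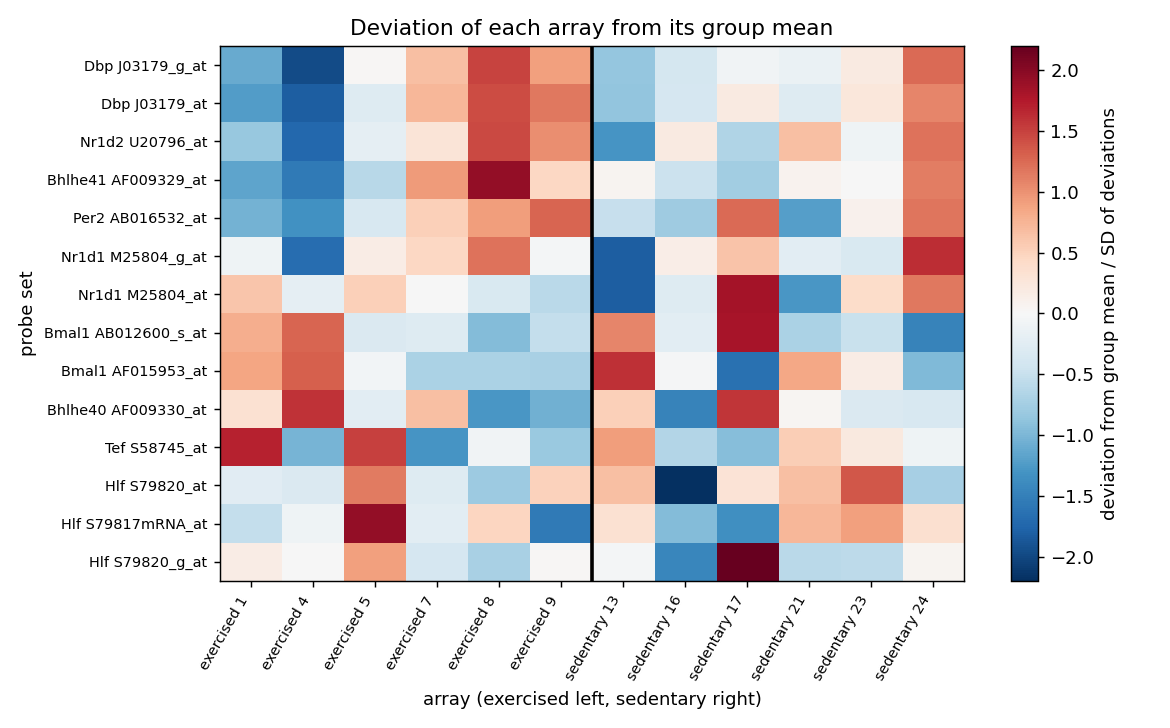
Deviation of each array from its group mean for the 14 clock probe sets, divided by the SD of the 12 deviations of the probe set (red above, blue below), exercised arrays left and sedentary arrays right. Exercised 4 is low and exercised 8 and sedentary 24 are high for Dbp, Nr1d2 and Bhlhe41, with the opposite colours for Bmal1, while the Tef and Hlf lines show no such pattern.

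Correlations were computed across the 12 arrays with the group means removed, with the brighter Dbp probe set against the other 6554 tested probe sets and an exact two-sided permutation test within groups. The other Dbp probe set ranked highest (r = 0.99, rho 0.99, exact permutation p = 1.93e-06 for both, the smallest these permutations can give, adjusted p = 0.0126), and it was the only probe set past an adjusted p of 0.05, or 0.0153% of all. At an unadjusted p under 0.05 there were 11% of all probe sets, 5.77% positive and 5.23% negative. Apart from the second probe set of Dbp itself, 5 of 11 tested clock probe sets were among them, 3 positive and 2 negative.

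Nr1d2 ranked 8 of 6554 (r = 0.91, rho 0.86, exact permutation p = 0.000158 and 0.00149, adjusted p = 0.115). Without exercised 4 and 8, the arrays farthest from the median of Dbp, r was 0.83 (exact permutation p = 0.00584), and it was 0.98 within the exercised and 0.77 within the sedentary arrays. Bhlhe41 ranked 14 (r = 0.89, rho 0.83, exact permutation p = 0.00103 and 0.00438, adjusted p = 0.196), with r = 0.80 without those 2 arrays, 0.94 within the exercised and 0.69 within the sedentary group. Neither passed the adjustment over all probe sets, and within the sedentary arrays alone the exact permutation p was 0.0653 for Nr1d2 and 0.143 for Bhlhe41.

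The 2 Nr1d1 probe sets parted here too. M25804_g_at ranked 45 (r = 0.80, rho 0.71, exact permutation p = 0.000723 and 0.00933, adjusted p = 0.176, r = 0.65 without the 2 arrays), and M25804_at ranked 2244 (r = 0.17, rho 0.091, exact permutation p = 0.505 and 0.771). The r of M25804_at was -0.42 within exercised arrays and 0.65 within sedentary arrays. Per2, set against Dbp in the table without the filter, ranked 42 of 8739 (r = 0.81, rho 0.80, exact permutation p = 0.00193 and 0.00435, adjusted p = 0.302), with r = 0.76 without the 2 arrays, 0.95 within the exercised and 0.63 within the sedentary group.

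Bmal1 went the other way on both probe sets. AB012600_s_at had an r of -0.75 with Dbp (rho -0.76, exact permutation p = 0.00148 and 0.00386, adjusted p = 0.216), rank 69 from the lowest, and -0.67 without the 2 arrays. AF015953_at had an r of -0.75 (rho -0.77, exact permutation p = 0.00333 and 0.00473, adjusted p = 0.324), rank 79 from the lowest, and -0.69 without them. Within the exercised arrays both were at -0.98, and within the sedentary arrays at -0.65 and -0.61 (exact permutation p = 0.146 and 0.194). With Nr1d2, the repressor of Bmal1 among the Rev-erbs that varied most, AB012600_s_at had an r of -0.87 (rho -0.89, exact permutation p = 0.000177 and 0.000216). Its adjusted p was 0.0467 with Bmal1 set against all probe sets and 0.0831 with Nr1d2 set against all of them, so this call depends on which gene the family of tests is built on. By the exact permutation test on rho, the adjusted p was 0.0574 and 0.0759 in the same order, and the pair passed in neither. In the Bmal1 set, r was -0.93 without sedentary 17 and exercised 4. The other Bmal1 probe set, AF015953_at, had an r of -0.60 with Nr1d2 (rho -0.63, exact permutation p = 0.0456 and 0.0369, adjusted p = 0.274), -0.45 without exercised 4 and 8 (exact p = 0.232), -0.94 within the exercised and -0.31 within the sedentary arrays.

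When exercised 4 and 5 were left out, r with Dbp was 0.86 for Nr1d2, 0.86 for Bhlhe41, 0.70 for M25804_g_at of Nr1d1, and -0.71 and -0.68 for the 2 Bmal1 probe sets. Without sedentary 16 it was 0.93, 0.89, 0.82, -0.77 and -0.75 in the same order.

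Bhlhe40 had an r of -0.59 with Dbp (rho -0.54, exact permutation p = 0.0636 and 0.0951), which was -0.24 without exercised 4 and 8, so it rested on those arrays. With AB012600_s_at of Bmal1 its r was 0.76 (exact permutation p = 0.00648, adjusted 0.101), and 0.49 without sedentary 17 and exercised 4. With AF015953_at it was 0.20. With Nr1d2 it was -0.74 (exact permutation p = 0.0118, adjusted 0.170), and -0.55 without exercised 4 and 8. Tef had an r of -0.19 and the 3 Hlf probe sets -0.09 to 0.06 (exact permutation p of 0.635 to 0.889 over the 4). A relation of Tef or Hlf with Dbp was thus not detectable with this number of arrays.

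**Figure D4:**
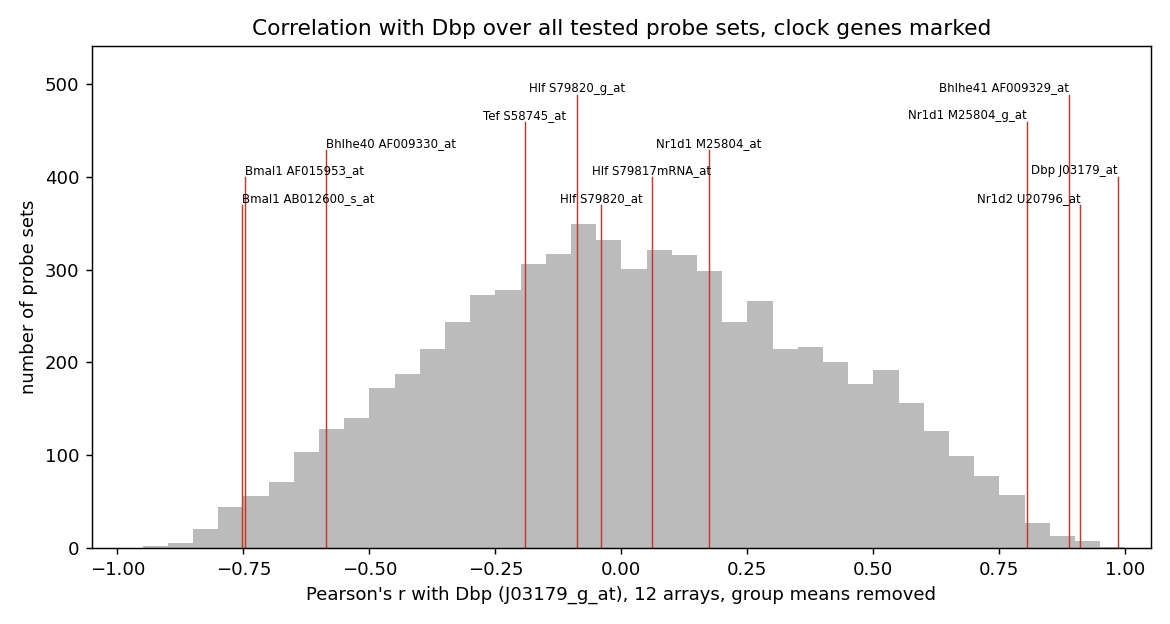
Histogram of Pearson's r with Dbp over the 6554 other tested probe sets (12 arrays, group means removed), with red lines at the clock probe sets. Dbp, Nr1d2, Bhlhe41 and 1 Nr1d1 probe set lie in the right tail, both Bmal1 probe sets in the left tail, and Tef, Hlf and the other Nr1d1 probe set in the middle.

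The covariation and the group difference can be set side by side. In a least-squares fit chosen after seeing the data, with the Dbp value of the array as a covariate, the log2 difference between exercised and sedentary samples was 0.12 ± 0.12 for Nr1d2 (SE, slope on Dbp 0.63 ± 0.094), 0.12 ± 0.065 for Bhlhe41 (slope 0.30 ± 0.052), -0.01 ± 0.084 for Per2 (slope 0.28 ± 0.067) and -0.05 ± 0.052 for AB012600_s_at of Bmal1 (slope -0.14 ± 0.042). Without the covariate these differences were 0.59, 0.35, 0.20 and -0.16. The other Bmal1 probe set, AF015953_at, had opposite signs in the 2 fits, at 0.14 ± 0.11 with Dbp (slope -0.29 ± 0.087) and -0.08 without it. For M25804_g_at of Nr1d1 the difference with Dbp in the fit was -0.21 ± 0.10 (slope 0.34 ± 0.083), against 0.05 without it. Dbp itself differed between the groups by 0.76 and was chosen together with these genes on the same arrays. The change in each difference thus follows from that of Dbp and the slope. Whether variation shared with Dbp accounts for the group differences was not tested.

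**Figure D5:**
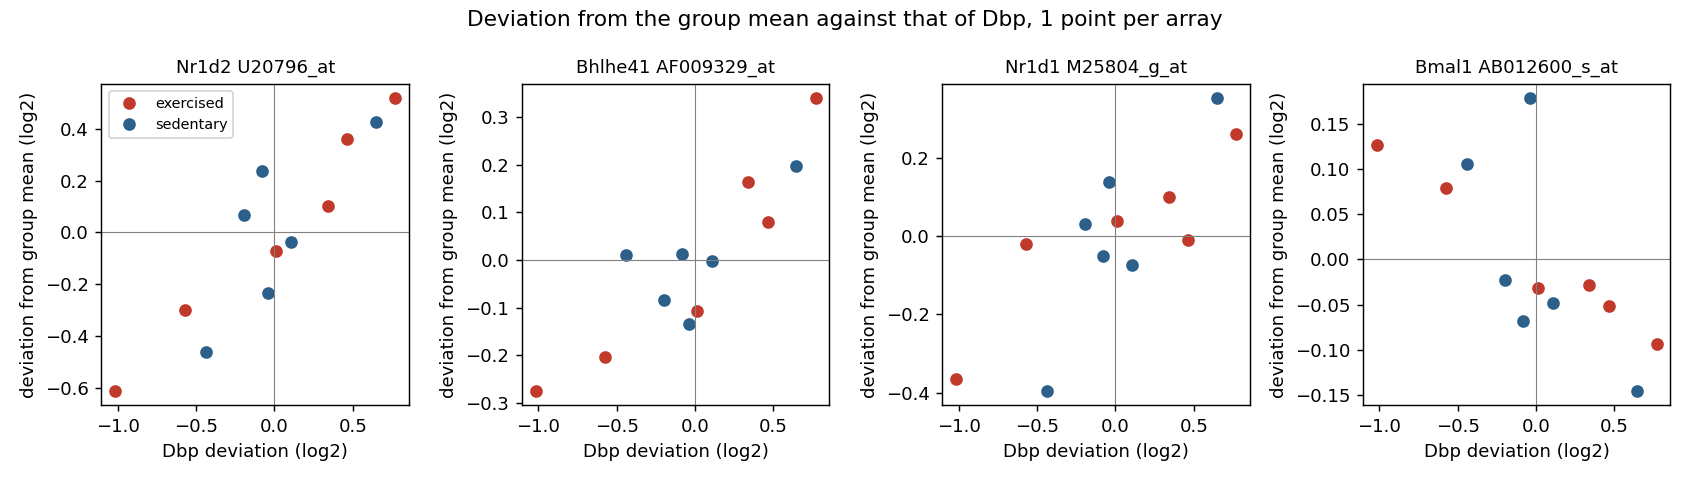
Deviation of each array from its group mean on the log2 scale for Nr1d2, Bhlhe41, M25804_g_at of Nr1d1 and AB012600_s_at of Bmal1, against that of Dbp, with exercised arrays in red and sedentary arrays in blue. The first 3 slope upwards (r of 0.91, 0.89 and 0.80) and Bmal1 downwards (r = -0.75), with points of both groups along each line.

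The number in the sample title also went with some of these genes within groups, and the labels do not say what it stands for. With group means removed, Pearson's r with the number was 0.74 for Dbp (rho 0.80, exact permutation p = 0.00113 and 0.000563), 0.76 for Nr1d2 (rho 0.75, 0.0043 and 0.0055), 0.62 for Bhlhe41 (rho 0.63, 0.0164 and 0.0186) and -0.77 for AB012600_s_at of Bmal1 (rho -0.83, 0.0087 and 0.00485), over 12 arrays. The other Bmal1 probe set, AF015953_at, had an r of -0.51 (exact permutation p = 0.128), which was -0.16 without 2 arrays, and M25804_g_at of Nr1d1 had 0.56 (exact p = 0.0802). Bhlhe40 had an r of -0.37, and Tef, Hlf and M25804_at had -0.31 to 0.19 (exact permutation p of 0.293 to 0.712), none with a p under 0.05. Adjusted over the 6555 probe sets, the p of the first 4 lay between 0.421 and 0.497 and none passed, and 8.63% of all probe sets had an unadjusted p under 0.05, 5.19% positive and 3.45% negative. Within the exercised group r was 0.82 for Dbp and -0.80 for AB012600_s_at of Bmal1, and within the sedentary group 0.86 and -0.76. Without the 2 arrays farthest from the median of the number, r was 0.68 for Dbp, 0.66 for Nr1d2, 0.71 for Bhlhe41 and -0.73 for AB012600_s_at of Bmal1.

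Other genes of the clock were mostly not measured. Of 13 further loop genes, such as Clock, Per1 and the Cry genes, Rorb and Timeless had a probe set and both were below the filter. Of 14 tested enzymes that modify clock proteins, 2 had a higher and 1 a lower level at an unadjusted p under 0.05 (median log2 difference 0.00), where 9.26% and 6.91% of all probe sets did, and none passed the adjustment. They were Csnk1a1, a casein kinase (0.13 ± 0.054, limma adjusted p = 0.247), Prkab1, a subunit of the energy sensor AMPK (0.24 ± 0.081, 0.164), and the phosphatase Ppp5c (-0.27 ± 0.12, 0.303). Set against Dbp within groups, Csnk1d (r = 0.60), Csnk2b (0.78), Gsk3a (0.69) and Prkab1 (0.71) had an exact permutation p under 0.05, 4 of 14, all positive, where 5.77% of all probe sets did.

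Of 19 tested genes known as clock outputs in other rodent tissues, 1 was higher at an unadjusted p under 0.05, the mitochondrial translocator Tspo (log2 difference 0.33 ± 0.071, limma adjusted p = 0.0614), where 9.26% of all were higher at that level, and the median was 0.00. Klf9, a Krüppel-like factor, averaged 3724 ± 733 in exercised and 3058 ± 458 in sedentary samples (0.25 ± 0.12, adjusted p = 0.315). Klf9 and the glucose transporter Slc2a4 were the 2 of the 19 with an exact permutation p under 0.05 for r with Dbp, at 0.92 and 0.75, a share near the 11% of all probe sets. Of 11 tested immediate early and cAMP-responsive genes, 10 were lower and 1 higher by sign (median -0.06), where 51.4% of all were higher, and the nuclear receptor Nr4a1 was lower at an unadjusted p under 0.05 (-0.42 ± 0.12, limma adjusted p = 0.103), as 6.91% of all were. Of 7 tested glucocorticoid response genes, Hsd11b1 and Glul were higher at that level (0.28 and 0.23), where 9.26% of all were, and none of the 7 had an exact permutation p under 0.05 for r with Dbp. Of the 6 fibroblast markers, Col1a1 and Col1a2 had such a p, with r of -0.77 and -0.67, where 5.23% of all probe sets had one with a negative r. The cardiomyocyte marker Myl2 had one too, the only one of 7 (r = -0.54).

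Genes whose pattern over the 12 arrays was most like that of a clock gene, group means removed, were taken by r alone, 5 from each end, among tested probe sets that name 1 gene. For Dbp they were Ephx1 (r = 0.94), Spr (0.93), Nsfl1c (0.93), Klhdc3 (0.92) and Klf9 (0.92), and at the other end Tmem214 (-0.93), Ncr3 (-0.90), Plagl1 (-0.88), Medag (-0.86) and Rab13 (-0.84). Their rho was 0.76 to 0.92 in size, their exact permutation p 5.02e-05 to 0.00413 and their adjusted p 0.115 to 0.324, so none passed. For Nr1d2 the highest were Hadha, which oxidises long fatty acids in mitochondria (0.97), Ppp2r1a (0.96), Vegfa (0.95), the potassium channel Kcnj11 (0.94) and Pik3ip1 (0.94), and the lowest Plagl1 (-0.96), Tmem214 (-0.95), Scnn1b (-0.91), Gpt (-0.91) and Bfsp1 (-0.91), with adjusted p of 0.0190 to 0.0868. For AB012600_s_at of Bmal1, the highest were Prpf3 (0.97), Kazn (0.94), Bud13 (0.93), Chordc1 (0.93) and Psme1 (0.92), and the lowest Padi4 (-0.94), Atp5if1 (-0.92), catalase, Cat (-0.92), Mpst (-0.92) and Grpel1 (-0.92), with adjusted p of 0.0235 to 0.0467. By the exact permutation test on rho, the adjusted p was 0.0303 to 0.0831 for the genes named for Nr1d2. For those named for Bmal1 it was 0.0542 to 0.139, so none of them passed by rank. The share of all probe sets that passed with Nr1d2 or Bmal1 was not counted. The other Bmal1 probe set ranked 2146 of 6554 with AB012600_s_at, at an r of 0.29, which was 0.87 without sedentary 17 and exercised 4. Plagl1 and Tmem214 were named at the low end for both Dbp and Nr1d2.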

How the data were processed

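Total RNA from rat left ventricle was measured in 12 samples on single-channel arrays. The table holds 1 intensity per probe set and array on a linear scale, as deposited by the authors. Which software, background correction or scaling made them is not stated in the labels or headers, and array medians of 840 to 875 show a common scale. A global scaling hides a change in total RNA, so each difference is relative to the rest of the array. Samples were grouped by title. Values were turned to log2(intensity + 363), the pseudocount being the 20th percentile of all values, and 6555 of 8740 probe sets with a mean above the 25th percentile of means (434) were tested with limma 3.58.1 (R 4.3.3, eBayes with trend, two-sided, Benjamini-Hochberg over all tested). Correlations used residuals from group means, with all 518400 permutations within groups. Code was tested on simulated data. Probe sets were named where the platform annotation gave 1 gene (7006), 6985 of which matched RefSeq by Entrez ID. Every member probe set is named, and the 5 genes highest and lowest in r with the brightest probe set of Dbp, Nr1d2 and Bmal1. Members of the fixed lists (other loop genes, modifying enzymes, outputs, immediate early genes, glucocorticoid response, markers of 7 cell types) are named at an unadjusted p under 0.05. Thra, Klf9's values and the correlation examples fall outside this rule and were chosen after seeing values. Members and lists were chosen with earlier results of these data known. Alternatives were other pseudocounts, filters, scalings, eBayes settings, array weights, a rank-sum test and leaving out arrays.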

Additional observations from a re-analysis of the deposited data

Results flagged for a closer look

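In 28 groups of 6 values (14 clock probe sets in each group), 1 value stood far from the others of its group by Dixon's test, where chance flags about 1 in 20 groups. It was the intensity of the dimmest Hlf probe set, S79820_g_at, on sedentary 17, at 674, against 524 to 577 on the other 5 sedentary arrays. Without sedentary 17 its log2 difference was 0.00, against -0.03 with all arrays. The same array was the highest sedentary one on AB012600_s_at of Bmal1 and the lowest on AF015953_at.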

How the results depend on the processing

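The count of clock probe sets past an adjusted p of 0.05 was 0 under every alternative run. By the exact rank-sum test it was 0 for all tested probe sets too, so that 0 says nothing about stability. The count at an unadjusted p under 0.05 was 5 with any 1 array left out and 3 by the exact rank-sum test. For these settings the share of all probe sets at that level was not counted, so nothing is read from the counts. With 3 times the pseudocount the log2 difference was 0.39 for Nr1d2, 0.22 for Bhlhe41, 0.42 for J03179_at of Dbp, -0.11 for AB012600_s_at and -0.05 for AF015953_at of Bmal1, against 0.59, 0.35, 0.65, -0.16 and -0.08. AF015953_at gave -0.15 (without sedentary 17) to -0.02 (without sedentary 13) with 1 array left out. For r with Dbp, the clock probe sets past the adjusted p numbered 0 to 1 with 1 array left out. With all arrays there was 1, the second probe set of Dbp itself. All probe sets past it numbered 0 to 2 with 1 array left out (2 without sedentary 16 or 24). Both counts were 0 without exercised 4 and 8, without exercised 4 and 5, and within either group alone. With 11 arrays the smallest exact permutation p is 1.16e-05, which over 6554 tests gives 0.0759, so 1 probe set alone cannot pass. With 10 arrays it is 5.79e-05, which gives 0.379, and within 1 group 0.00139, so these zeros say nothing about stability. The weak r with Dbp changed sign as follows, and the cause was not tested. For M25804_at of Nr1d1, r was -0.0916 after quantile normalization and -0.420 within exercised arrays. For Tef, r was -0.573 to 0.0159 with 1 array left out. For Hlf, S79820_at had -0.205 to 0.106 with 1 array left out and 0.00314 within exercised arrays. S79817mRNA_at had -0.0176 to 0.258 with 1 array left out, -0.0243 without exercised 4 and 8 and -0.00311 within exercised arrays. S79820_g_at had -0.169 to 0.0320 with 1 array left out, 0.00572 after quantile normalization and 0.0898 within sedentary arrays. No paired analysis was possible because the groups share no title number. With 6 arrays in a group, their number limits the precision, and dim probe sets such as Per2 lie near background.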
